A study of Homo sapiens with 2 samples.

Results

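The genes examined here encode proteins of the bone matrix and of its mineralization, together with SP7, a transcription factor required for osteoblast formation. They are 10 genes: SP7, ALPL, BGLAP, IBSP, SPP1, SPARC, DMP1, MEPE, PHEX and IFITM5. RefSeq lists 19974 protein-coding genes on chromosomes 1 to 22 and X. The 10 were chosen by name, with earlier results of these data known. Accessibility was read from DNase-seq of Saos-2 and U2OS, a pair of established human osteosarcoma cell lines, with 1 library per line and no treatment named in the labels. DNase I cuts DNA that is free of nucleosomes, and a hotspot is a stretch with more cuts than its surroundings, called by the authors at a false discovery rate of 0.05. Each hotspot carries the authors' significance, the −log10 of its false discovery rate. With 1 library per line there is no replicate error and no test, and differences describe these 2 libraries.

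Osteoblasts secrete a collagen scaffold and load it with acidic proteins that bind calcium and hydroxyapatite. Alkaline phosphatase, the product of ALPL, removes pyrophosphate, an inhibitor of crystal growth, and supplies phosphate. The SIBLING family (small integrin-binding ligand N-linked glycoproteins) is a row of neighbouring genes on chromosome 4 whose secreted products bind mineral or regulate its growth. Saos-2 is widely used as an osteoblast-like line with high alkaline phosphatase activity, whereas U2OS is less differentiated.

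Sites were collected in the span of each gene plus 100 kb on both sides, on hg38, and hotspots of both lines that overlapped by at least 1 bp were joined into 1 site. A site is shared when it holds hotspots of both lines. The 10 windows formed 7 separate stretches of 2.07 Mb in all and contained 71 Saos-2 and 87 U2OS hotspots, which gave 107 sites. Of these sites 44 were shared, 23 were found only in Saos-2 and 40 only in U2OS. Over the genome, 29044 of 84319 sites were shared, 21605 were found only in Saos-2 and 33670 only in U2OS. The whole lists held 51556 hotspots over 14.2 Mb in Saos-2 and 63388 over 17.8 Mb in U2OS, so U2OS had 1.25-fold more covered bases genome-wide. Read depth is unknown, and its part in this difference was not tested.

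Hotspots at transcription starts were counted for too few genes to set their share apart from the background. RefSeq promoter entries, which fix the transcription start and strand, were matched for 8 of the 10 genes (all but SP7 and PHEX). A hotspot lay within 1 kb of a listed start for 3 of the 8 in Saos-2 (ALPL, BGLAP and SPARC) and for 2 in U2OS (BGLAP and SPARC). Over 15813 protein-coding genes with an entry, 51.2% had such a hotspot in Saos-2 and 56.0% in U2OS. DMP1, IBSP, MEPE, SPP1 and IFITM5 had none in either line, 5 of 8 genes against a background of 39.2%. The hotspot nearest to a start was at 19.7 kb in Saos-2 and 19.8 kb in U2OS for IBSP, and at 79.1 kb and 32.8 kb for SPP1. Among protein-coding genes, 8.46% in Saos-2 and 11.4% in U2OS were farther from a hotspot than SPP1.

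**Figure D1:**
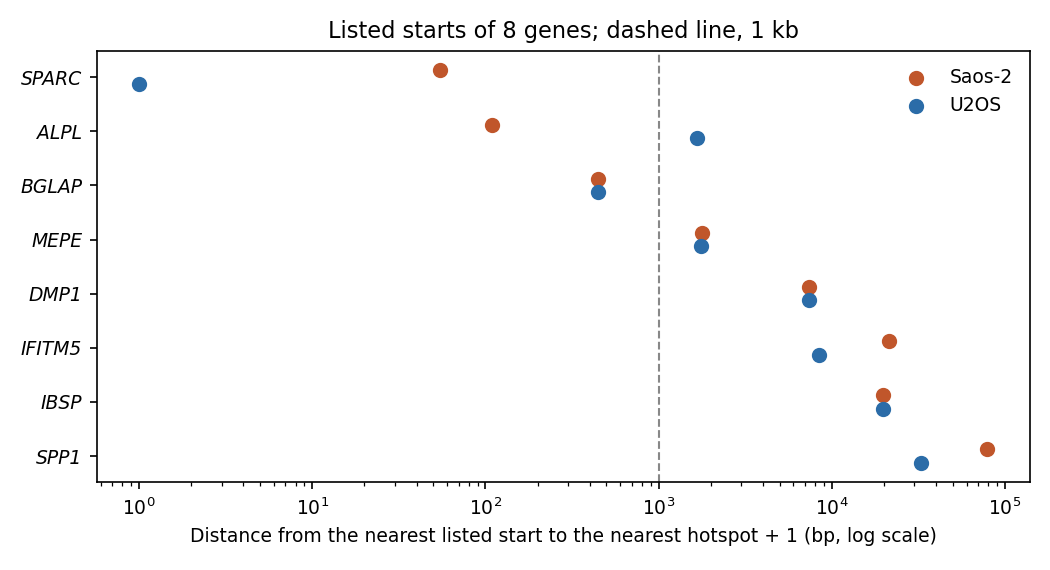
Distance in bp, plus 1, on a log scale, from the nearest listed transcription start of each of 8 genes to the nearest hotspot of Saos-2 and of U2OS; each point is 1 library. SPARC and BGLAP lie left of the 1 kb line in both lines and ALPL in Saos-2, while SPP1 lies farthest right.

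The 250 bases before the start are shown for the genes where a hotspot overlapped them, 5′ to 3′ on the gene's strand (RefSeq, GRCh38.p14). Capitals mark the bases inside the site, which joins the hotspots of both lines where it is shared. For ALPL this is the listed start nearest to a hotspot, chr1:21509173-21509422 on the plus strand, where the Saos-2 hotspot covered 143 bases. For SPARC it is chr5:151686916-151687165 on the minus strand, where the merged site covered 162 bases. That site joins a Saos-2 hotspot of 109 bp and a U2OS hotspot of 150 bp, so not every capital lay in both.
ALPL: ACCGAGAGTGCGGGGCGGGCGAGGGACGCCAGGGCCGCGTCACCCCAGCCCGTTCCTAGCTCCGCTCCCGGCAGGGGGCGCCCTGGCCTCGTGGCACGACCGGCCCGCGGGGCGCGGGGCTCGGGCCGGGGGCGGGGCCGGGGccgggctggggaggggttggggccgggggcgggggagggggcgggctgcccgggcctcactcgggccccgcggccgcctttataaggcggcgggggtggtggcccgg
SPARC: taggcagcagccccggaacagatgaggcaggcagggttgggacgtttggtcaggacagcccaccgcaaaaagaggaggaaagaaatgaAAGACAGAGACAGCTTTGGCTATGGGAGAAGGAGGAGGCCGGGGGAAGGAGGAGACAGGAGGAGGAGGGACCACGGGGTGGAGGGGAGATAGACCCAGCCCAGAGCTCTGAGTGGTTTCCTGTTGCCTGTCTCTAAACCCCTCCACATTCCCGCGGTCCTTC
The ALPL stretch had 83.6% G and C and the SPARC stretch 59.2%, against a median of 58% over 35116 listed starts. The GC box GGGCGG, read on both strands, occurred 4 times in the ALPL stretch and not in that of SPARC. It occurred at least once in 42.6% of all windows of this length.

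Next to these stand starts where the same 250 bases held no hotspot in either line. Capitals here mark matches on either strand. The motifs found were the RUNX core, spelled TGTGGT, the TATA box, spelled TATAAA, the CCAAT box, named for its letters, and the GC box. AP-1 (TGANTCA) and a homeodomain motif (TAATTA) were searched too and had no match in the 6 stretches printed. The stretches are BGLAP, chr1:156241934-156242183; SPP1, chr4:87975464-87975713; DMP1, chr4:87650030-87650279; and IBSP, chr4:87799304-87799553, all on the plus strand.
BGLAP: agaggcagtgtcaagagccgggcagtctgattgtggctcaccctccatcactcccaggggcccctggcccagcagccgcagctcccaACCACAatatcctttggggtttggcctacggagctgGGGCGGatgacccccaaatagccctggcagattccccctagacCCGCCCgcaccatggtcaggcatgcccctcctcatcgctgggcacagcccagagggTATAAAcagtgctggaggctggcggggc
SPP1: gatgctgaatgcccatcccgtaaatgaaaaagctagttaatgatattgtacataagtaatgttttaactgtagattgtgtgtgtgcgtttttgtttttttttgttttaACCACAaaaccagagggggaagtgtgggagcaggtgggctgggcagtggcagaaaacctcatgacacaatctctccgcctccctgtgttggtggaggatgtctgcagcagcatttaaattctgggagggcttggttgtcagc
DMP1: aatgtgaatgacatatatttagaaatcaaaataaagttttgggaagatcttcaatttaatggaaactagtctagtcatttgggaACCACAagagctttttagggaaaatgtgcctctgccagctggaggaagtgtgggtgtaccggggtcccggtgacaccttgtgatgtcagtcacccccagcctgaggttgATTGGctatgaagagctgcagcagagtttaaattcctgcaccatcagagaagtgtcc
IBSP: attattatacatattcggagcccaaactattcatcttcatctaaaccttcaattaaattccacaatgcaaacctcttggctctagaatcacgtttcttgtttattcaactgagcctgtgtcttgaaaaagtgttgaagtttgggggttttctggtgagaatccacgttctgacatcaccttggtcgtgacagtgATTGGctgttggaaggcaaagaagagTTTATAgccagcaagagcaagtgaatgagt
The RUNX core lay 163 bases before the start in BGLAP, 142 in SPP1 and 166 in DMP1, counted to its first base. It also lay before the second listed start of MEPE and occurred in 11.0% of all windows. The TATA box began 28 bases before the start in BGLAP, 30 in IBSP and 29 in ALPL, and occurred in 10.7% of windows. Before the second listed start of MEPE it began at 208 bases. The CCAAT box lay 56 bases before the start in IBSP, 57 in DMP1, and 58 and 51 before the second of MEPE. It occurred in 32.0% of windows. No matches overlapped one another in these stretches, and a match shows only that the letters are present.

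SP7 (gene 121340, chr12:53326575-53344793), also called osterix, is the zinc finger factor required for osteoblast formation. Its window held 18 Saos-2 and 11 U2OS hotspots, which covered 5048 and 4371 bp. Of all protein-coding windows, 98.3% had fewer Saos-2 hotspots per 100 kb, and 81.6% had fewer U2OS hotspots. Of its 18 sites 9 were shared, 7 were called in Saos-2 alone and 2 in U2OS alone. Within the gene there was 1 site, in Saos-2, at chr12:53336292-53336492 with a significance of 2.82. U2OS had no hotspot over 46.1 kb around the gene, from 53325106 to 53371229. The nearest shared site, chr12:53324829-53325105, lay 1.47 kb below the lower-coordinate end, with 2.80 in Saos-2 and 4.50 in U2OS. Much of the window's accessibility belonged to neighbouring genes. The most significant site in both lines was at the start of PRR13, with 20.2 in Saos-2 and 28.9 in U2OS. The next in U2OS was upstream of AMHR2 at chr12:53421273-53421882, with 8.38 in Saos-2 and 22.5, and the next in Saos-2 was at the start of SP1, with 15.2 and, in U2OS, 16.6. Among the 7 Saos-2-only sites, 4 lay within 1 kb of the starts of SLC61A1 and ESPL1, with values from 2.33 to 3.88. They form a pair of close neighbours at each start: chr12:53251651-53251870 with 53252015-53252212, and chr12:53268155-53268366 with 53268370-53268522. Whether each pair is a divided call of 1 stretch was not tested.

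ALPL (gene 249, chr1:21508984-21578410) encodes tissue-nonspecific alkaline phosphatase. Its window held 8 Saos-2 and 17 U2OS hotspots covering 1705 and 4081 bp, which was 2.39-fold more in U2OS. The gene itself contained 4 Saos-2 and 10 U2OS hotspots covering 941 and 2134 bp, which was 50.2% of the difference in bases. Saos-2 alone had a hotspot between the first 2 listed starts, at chr1:21509134-21509315, the site whose bases are capitalized above. Its significance of 2.91 was modest: 66.3% of the Saos-2 list was at least as significant. U2OS had no hotspot within 1 kb of any of the 3 listed starts, and its nearest was 1.67 kb from the start at 21551270. A shared site in the gene at chr1:21511980-21512335 had 11.6 in Saos-2 and 5.09 in U2OS. Near the other end, the shared site chr1:21574115-21574506 had 2.05 in Saos-2 and 13.3 in U2OS. Both lines thus had an accessible site at either end of the gene body, but the more significant one was near the start in Saos-2 and near the higher-coordinate end in U2OS. Another shared site in the gene, chr1:21541922-21542250, had 3.86 and 5.62. The 7 U2OS-only sites in the gene ranged up to 7.33, at chr1:21568304-21568650. Beyond the gene by 8.50 kb, in LINC02596, lay the U2OS-only site chr1:21586911-21587319 with 15.8. It was the only site found in a single line that reached 10 among the 107 sites, and only 11.4% of the U2OS list was at least as significant.

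PHEX (gene 5251, chrX:22032325-22251310) encodes a membrane endopeptidase whose loss causes X-linked hypophosphataemia. Its window held 4 Saos-2 and 7 U2OS hotspots covering 635 and 1414 bp, 2.23-fold more in U2OS. None of the sites inside the gene was shared: 5 were in U2OS and 2 in Saos-2. Over the genome 34.4% of sites were shared. The U2OS sites inside ranged from 2.30 to 8.86, with the most significant at chrX:22097321-22097675 and the next, 7.68, at chrX:22063394-22063652. The Saos-2 sites were chrX:22134892-22134998 with 1.92 and chrX:22192822-22192947 with 3.42. The 2 shared sites lay in the flanks, 46.7 kb below and 49.0 kb above the gene. Neither end of the gene had a hotspot within 30.0 kb in either line.

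**Figure D2:**
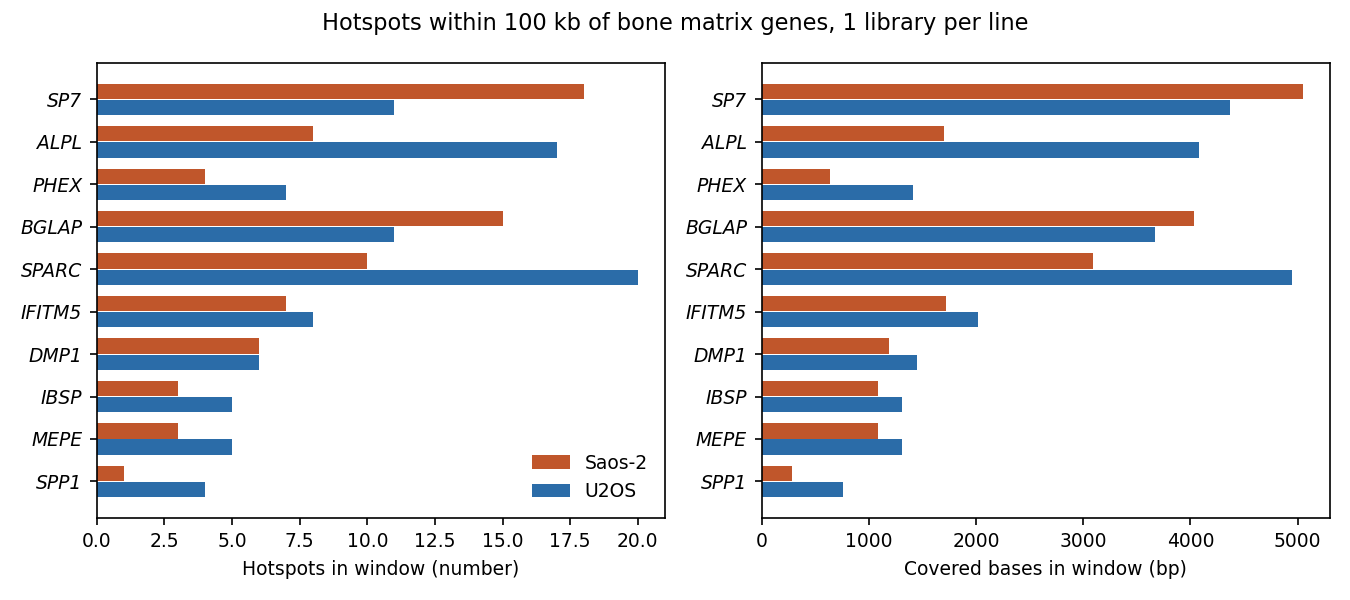
Number of hotspots (left) and of bases they cover (right) in the gene span plus 100 kb on both sides, for each of the 10 genes; each bar is 1 library and bars start at 0. U2OS has the largest excess of hotspots at SPARC (20 and 10) and of bases at ALPL (4081 and 1705 bp), while SP7 and BGLAP have more of both in Saos-2.

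BGLAP (gene 632, chr1:156242184-156243317) encodes osteocalcin, the vitamin K-dependent calcium-binding protein of mature osteoblasts. Neither line had a hotspot in the gene, and none lay over 20.8 kb from 156241739 to 156262565. The nearest site, chr1:156241608-156241738, was shared and ended 446 bp before the start. It had 2.49 in Saos-2 and 1.84 in U2OS, and lies in the read-through gene PMF1-BGLAP. The wider window was rich, with 15 Saos-2 and 11 U2OS hotspots covering 4034 and 3670 bp, and 97.0% and 85.9% of protein-coding windows were sparser. Its most significant site, with 24.9 and 39.2, was at the start of CCT3, a chaperonin subunit gene 94.8 kb away. Its 17 sites comprised 8 shared ones, 7 of Saos-2 alone and 2 of U2OS alone. The most significant Saos-2-only site, chr1:156291396-156291678 with 6.23, was at a listed start of SMG5. Another listed start of SMG5 lay in the shared site chr1:156282717-156283130, with 13.2 in Saos-2 and 15.1 in U2OS.

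SPARC (gene 6678, chr5:151661096-151686915) encodes osteonectin, which binds collagen and calcium. Its start lay inside a U2OS hotspot and 54 bp from a Saos-2 hotspot. These formed the shared site chr5:151686909-151687077, with 1.71 in Saos-2 and 2.28 in U2OS. Both values were low in their lists, since 93.3% of Saos-2 and 81.9% of U2OS hotspots were at least as significant. A second shared site in the gene, chr5:151684973-151685286, had 2.95 and 4.03. The window held 10 Saos-2 and 20 U2OS hotspots covering 3091 and 4948 bp, 1.60-fold more in U2OS, and 98.7% of protein-coding windows were sparser in U2OS. Of 19 sites, 8 were shared, 10 were in U2OS only and 1, chr5:151696566-151696820 with 2.49, in Saos-2 only. The U2OS-only sites included 4 between 42.8 and 47.6 kb below the gene, led by chr5:151613137-151613480 with 9.69, and one at chr5:151652078-151652359 with 7.24. The most significant site of the window was at the start of G3BP1, with 36.7 in Saos-2 and 40.9 in U2OS.

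IFITM5 (gene 387733, chr11:298200-299526) encodes a small membrane protein of osteoblasts that is mutated in a form of brittle bone disease. No hotspot of either line lay over 71.4 kb around it, from 236610 to 308005. The nearest site, chr11:308006-308191 with 3.17, was in U2OS only and inside IFITM2. The nearest Saos-2 hotspot belonged to a shared site at IFITM3, chr11:320806-321021, with 3.84 in Saos-2 and 5.14 in U2OS. The window held 7 Saos-2 and 8 U2OS hotspots covering 1723 and 2021 bp, and 5 of its 9 sites were shared.

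The SIBLING genes DMP1, IBSP, MEPE and SPP1 lie in overlapping windows that span 533 kb of chromosome 4. This stretch had 9 Saos-2 and 13 U2OS hotspots in 16 sites, of which 6 were shared, 3 were called in Saos-2 alone and 7 in U2OS alone. No site of the stretch lay in IBSP or SPP1. DMP1 (gene 1758, chr4:87650280-87664357), a mineral-nucleating protein of osteocytes, contained the shared site chr4:87657625-87657856, with 3.63 in Saos-2 and 4.19 in U2OS. It also contained the U2OS-only site chr4:87659359-87659514 with 2.57. Below the gene by 60.3 kb, on the far side of DSPP and in DMP1-AS1, the shared site chr4:87589507-87589967 had 4.71 in Saos-2 and 23.5 in U2OS. It stood near the middle of the Saos-2 list, where 43.3% was at least as significant, and high in the U2OS list, where 5.21% was. Another shared site 17.5 kb below the gene, chr4:87632514-87632787, had 4.31 and 8.72.

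MEPE (gene 56955, chr4:87821398-87846792) encodes a phosphoglycoprotein of osteocytes that can inhibit mineralization. It contained the shared site chr4:87843895-87844304, with 8.15 in Saos-2 and 3.31 in U2OS. That was the most significant Saos-2 site of the stretch. A shared site before the gene, chr4:87819218-87819639, ended 1.76 kb from the first listed start and had 6.93 in Saos-2 and 8.89 in U2OS. It also lay 6.78 kb beyond IBSP (gene 3381, chr4:87799554-87812435), which encodes bone sialoprotein, and was the site nearest to that gene. IBSP itself was in a hotspot-free stretch of 139.6 kb in Saos-2 and 86.8 kb in U2OS. The IBSP and MEPE windows held the same 5 sites, 3 shared and 2 in U2OS only, and covered 1089 bp of the Saos-2 list and 1311 bp of that of U2OS.

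SPP1 (gene 6696, chr4:87975714-87983411) encodes osteopontin, which binds integrins and inhibits crystal growth. Its window had the fewest hotspots of the 10, with 1 in Saos-2 and 4 in U2OS, covering 287 and 758 bp. A hotspot-free stretch around the gene ran for 208 kb in Saos-2 and for 112 kb in U2OS. The Saos-2 hotspot was part of the shared site chr4:87896226-87896637, which was 79.1 kb below the gene and had 4.49 in Saos-2 and 17.3 in U2OS. This site is also in the windows of IBSP and MEPE and was counted once. The 3 U2OS-only sites lay in PKD2, with values from 2.01 to 3.32.

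**Figure D3:**
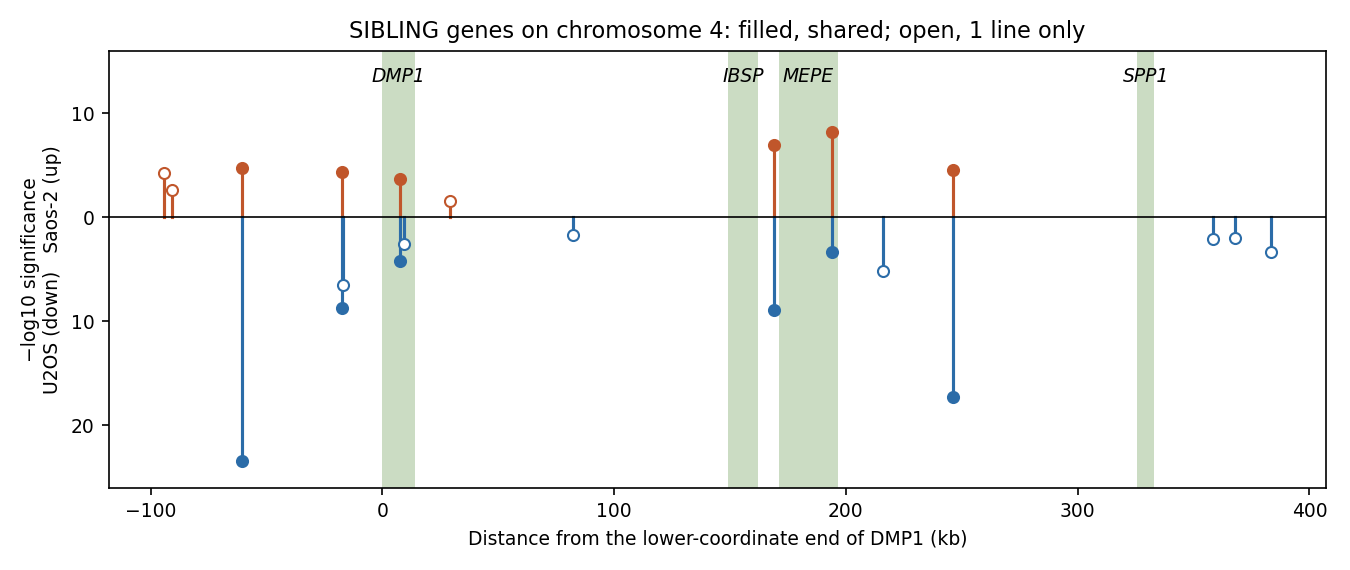
Significance (−log10 of the false discovery rate) of each site around the SIBLING genes against distance in kb from the lower-coordinate end of DMP1; Saos-2 points upward and U2OS downward, filled points are shared sites and open points are found in 1 line. IBSP and SPP1 contain no site, and the shared sites below DMP1 (23.5) and between MEPE and SPP1 (17.3) are the most significant in U2OS.

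Compared over all 10 genes, 8 windows had more covered bases in U2OS, as did 13035 of 19631 protein-coding windows with a hotspot. Of the 8, 4 (DMP1, IBSP, MEPE and IFITM5) had fewer in U2OS once bases were taken relative to each whole list. The IBSP and MEPE windows hold the same sites and enter these counts and the median separately. SP7 and BGLAP had more in Saos-2 on both scales. The median ratio of U2OS to Saos-2 was 1.21, against 1.22 over all protein-coding windows with a hotspot. At least 2-fold more bases were covered in U2OS for 3 of 10 windows (ALPL, SPP1 and PHEX), where 23.4% of 19631 protein-coding windows were, and in Saos-2 for 0 of 10, where 5.55% were. The U2OS count is close to the background. Relative to the whole lists SPP1 alone passed it, at 2.11-fold, and ALPL and PHEX were at 1.91 and 1.78; with lists of equal length ALPL alone did.

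The share of sites held in common was higher than over the genome, but within its counting error for the windows and lists used here. Of the Saos-2 hotspots in the windows, 48 of 71 (67.6%, 95% Wilson interval 56.1 to 77.3%) overlapped a U2OS hotspot, against 58.1% of the whole list. Of the U2OS hotspots, 47 of 87 (54.0%, 43.6 to 64.1%) overlapped a Saos-2 hotspot, against 46.9%. Within 100 kb of any protein-coding gene 59.9% of Saos-2 and 49.3% of U2OS hotspots were overlapped. Both intervals, which cover counting error only, include these values and those of the whole list. Some alternatives end this for the whole list. Within 200 kb the share was 67.6% (58.3 to 75.7%) in Saos-2 and 56.7% (48.0 to 65.0%) in U2OS. Both intervals lay above the whole list but included the shares within 100 kb of any protein-coding gene. For Saos-2 the interval also lay above the whole list at a false discovery rate of 0.01, with 73.2% (60.4 to 83.0%) against 58.8%. For U2OS it did so with lists of equal length, with 65.6% (53.4 to 76.1%) against 52.1%. Under the alternatives the share near any protein-coding gene was not computed. Of the merged sites 41.1% (32.3 to 50.6%) were shared, against 34.4% of 84319 sites in the genome. Bases covered in both lines made up 0.470 of the bases covered in either, and 0.331 over chromosomes 1 to 22 and X.

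**Figure D4:**
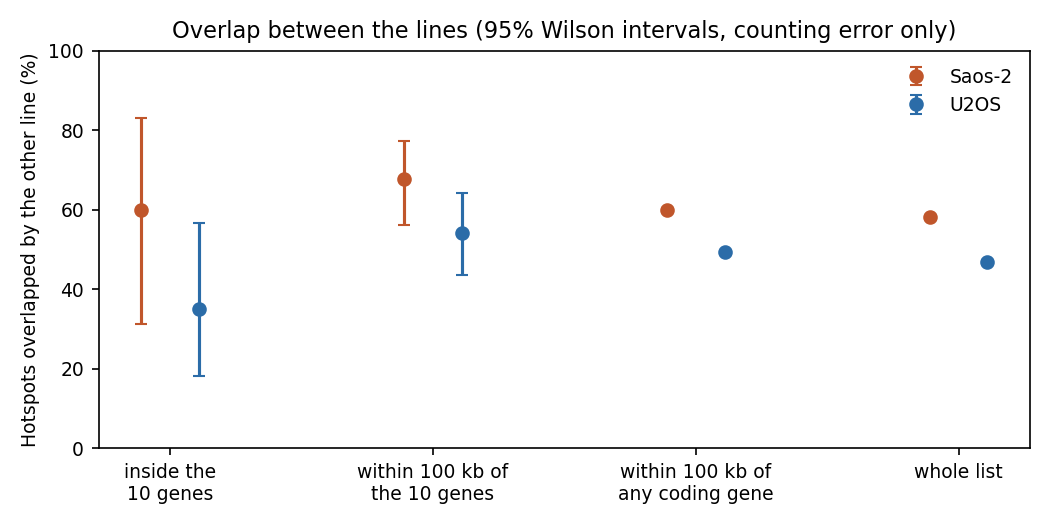
Share of hotspots, in percent, that overlap a hotspot of the other line, for hotspots inside the 10 genes, within 100 kb of them, within 100 kb of any protein-coding gene and in the whole list; bars are 95% Wilson intervals for counting error, 1 library per line. The shares within 100 kb are 67.6% in Saos-2 and 54.0% in U2OS, and the intervals inside the genes are wide.

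The most significant sites lay mostly outside the genes themselves, as did most sites of any significance. The flanks make up most of the bases in the windows, so this position follows largely from the windows chosen. Inside the genes there were 24 sites, of which 7 were shared, 4 were called in Saos-2 alone and 13 in U2OS alone. Within 1 kb of a listed start but outside the 10 genes there were 25 sites, of which 13 were shared; all but the one before BGLAP were at starts of other genes. Elsewhere in the flanks 24 of 58 sites were shared. The median significance was 2.95 in Saos-2 and 3.60 in U2OS inside the genes, and 5.32 and 8.41 at the listed starts outside them. Of the 8 sites that reached 10 in Saos-2, 7 were at listed starts outside the 10 genes and the other was in ALPL. In U2OS 14 sites reached 10, 7 of them at such starts, 1 in ALPL and 6 elsewhere in the flanks. Such sites made up 11.9% (6.18 to 21.8%) of the 67 sites with a Saos-2 hotspot, against 17.4% in the genome, and 16.7% (10.2 to 26.1%) of the 84 with a U2OS hotspot, against 22.7%. Both intervals include the share of the genome.

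**Figure D5:**
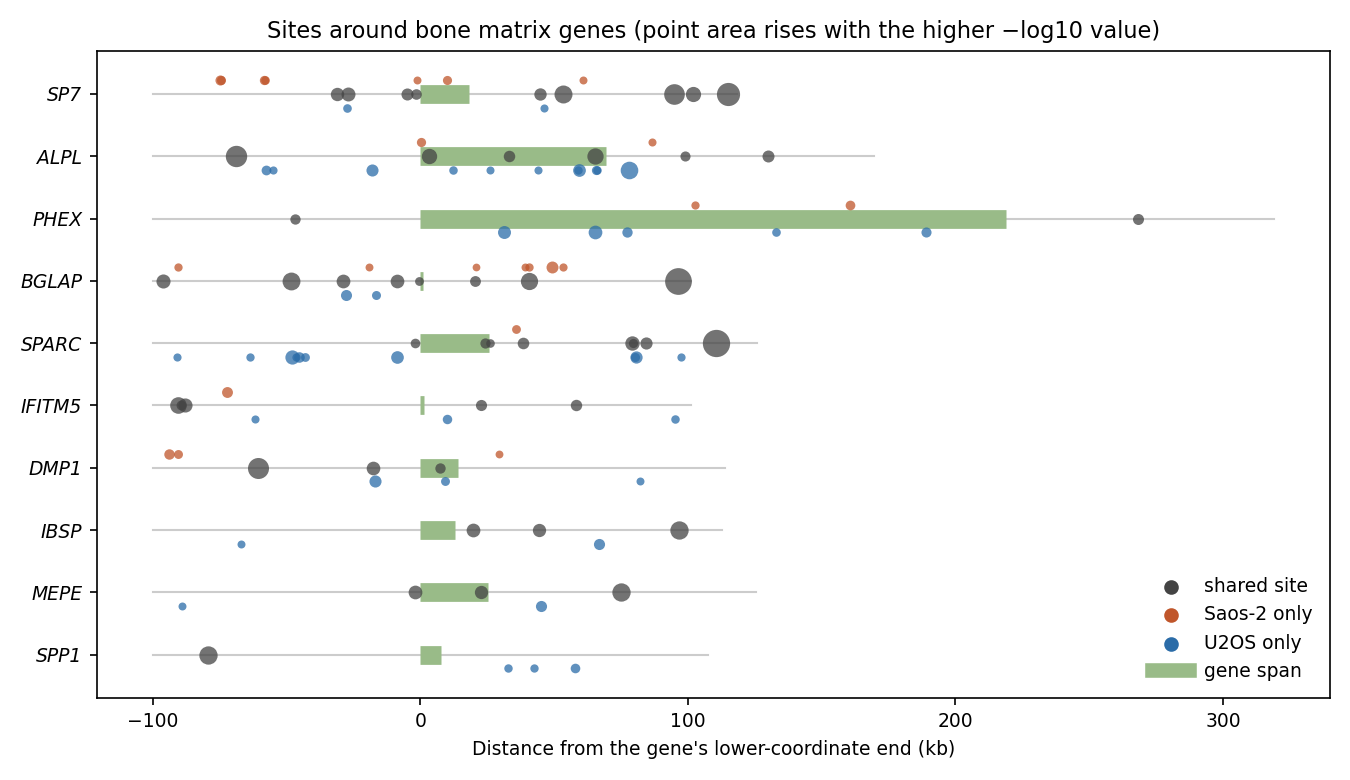
Position of every site in kb from the lower-coordinate end of each gene, with the gene span in green; grey points are shared sites, orange Saos-2 only and blue U2OS only, offset vertically for clarity, and the area of a point rises with the higher −log10 value. Large points, like most points, lie outside the genes, as do most bases of the windows. The sites inside PHEX are all found in 1 line, and over the genome 34.4% of sites are shared.

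Other genes of matrix and mineralization, taken from 4 fixed lists, gave a mixed picture. Among 32 such genes, 7 windows were covered at least 2-fold more in U2OS, where 23.4% of protein-coding windows were, and 6 in Saos-2, where 5.55% were. The median ratio was 1.13, and several of these windows overlap. Of 8 genes of phosphate and pyrophosphate handling, SLC20A1, a phosphate transporter, had 1514 bp covered in Saos-2 and 4475 in U2OS, a 2.96-fold difference. SLC20A2, a related transporter, went the other way, with 3084 and 1250 bp. Among 8 small leucine-rich proteoglycans, which organize collagen fibrils, ASPN (1012 and 282 bp) and DCN (2013 and 858 bp) passed 2-fold in Saos-2 and FMOD (879 and 2066 bp) in U2OS. Of 11 other matrix genes, THBS1 and CLEC3B passed in Saos-2, and FGF23 and SOST, a phosphate hormone and a Wnt antagonist made by osteocytes, in U2OS. The largest ratios were at genes of the same secretory calcium-binding family farther along chromosome 4. There AMTN had 69 bp covered in Saos-2 and 2459 in U2OS, AMBN had 599 and 4091 bp and ENAM 917 and 3126 bp, in windows that overlap one another. ODAM, of the same family, had 144 bp in Saos-2 and none in U2OS. Of the 26 genes with a listed start, 7 had a hotspot within 1 kb of it in Saos-2, where 51.2% of protein-coding genes had one, and 9 in U2OS, where 56.0% had.

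As a check of the labelled cell type, hotspots were counted within 1 kb of either end of marker genes. Among osteoblast lineage genes, RUNX2 had one in both lines and COL1A1 in U2OS only, and COL1A2 and DLX5 had none in either line. Of 18 markers of cartilage, fat, muscle, blood, epithelium and liver, 4 had one in each line. The blood genes SPI1 and CD3E (2 of 3 blood markers) and the cartilage gene SOX9 had one in both lines, the cartilage gene COL10A1 in Saos-2 and the muscle gene DES in U2OS. The markers of fat, epithelium and liver had none. Over all protein-coding genes the shares were 47.9% in Saos-2 and 53.4% in U2OS.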

How the data were processed

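DNase-seq of Saos-2 and U2OS, 1 library each, was analysed from hotspot lists, called by the authors for each library on its own. Per the labels' protocols, nuclei were digested with limiting DNase I for 3 min at 37 °C and libraries were amplified for 8 to 10 cycles. The submitters' processing notes name Trimmomatic 0.38, BWA 0.7.15 and hg38; the hotspot caller, read filters and duplicate handling are not given in the sources used here. The deposited −log10 value, capped at 100, was taken as significance, since its lowest value equals the −log10 of 0.05; the lists have no header. The deposited score is 10 times that value, rounded, and was not used. Depth per library is unknown.

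Genes and promoter sequences came from RefSeq (GRCh38.p14, the primary assembly of hg38). Overlap, coverage and intervals were computed with Python 3.11.15, pandas 2.3.3, numpy 2.4.6 and scipy 1.17.1, and the overlap steps were checked on simulated hotspots. Covered bases were clipped to the window; a window was called at a 2-fold ratio, also where the other line had none. Named were all 10 genes, their start sites, the most significant shared and line-specific sites per window, and the largest ratios of the other lists. Some names were chosen after their values were seen: the remaining 2-fold genes of the 3 lists not on chromosome 4, and sites inside the genes, nearest to them or of significance of at least 10. The genes and lists were chosen with earlier results of these data known. Some of the marker genes examined are not reported here. Alternative windows, thresholds, list lengths and overlap rules were tried.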

Additional observations from a re-analysis of the deposited data

How the results depend on the processing

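No paired analysis was possible because each line had 1 library, and no replicate could be left out. Alternatives gave 163 values, of which 91 stayed close to the reported one and 72 moved by more than 1.5-fold, past the Wilson interval or, for windows under 2-fold, to the other direction; no window past 2-fold changed direction. The covered bases at ALPL, SPARC, DMP1 and PHEX were higher in U2OS in all 7 alternatives; SP7 was higher in Saos-2 in 4 of these 7, BGLAP in 5, IBSP in 3, MEPE in 2 and IFITM5 in 1, and SPP1 was higher in U2OS in 6 and had no bases in either line within 10 kb. These 7 leave out the scaling to the whole list, under which DMP1 too was higher in Saos-2.

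Counts followed the size of the window. Within 50 kb there were 28 shared and 14 Saos-2-only sites, 44 Saos-2 hotspots, 10111 bp covered in Saos-2 and 14487 bp in U2OS. Within 10 kb there were 13 shared, 6 Saos-2-only and 16 U2OS-only sites, 21 and 29 hotspots, and 4300 and 6985 bp. Within 200 kb there were 69 shared and 35 Saos-2-only sites, and 108 hotspots and 29100 bp in Saos-2. Windows at least 2-fold higher in U2OS numbered 5 within 50 kb (background 26.0%), 0 within 200 kb (20.2%), and 1 in the top 50% of each list (26.3%), 1 with lists of equal length (20.5%) and 1 relative to the whole list (16.2%). No window was 2-fold higher in Saos-2 under any alternative run.

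The top 50% of each list left 22 shared, 10 Saos-2-only and 17 U2OS-only sites, 32 and 40 hotspots, and 15614 bp in U2OS. At a false discovery rate of 0.01 there were 15 Saos-2-only sites. With lists of equal length there were 22 U2OS-only sites, and 65.6% of U2OS hotspots (53.4 to 76.1%) were overlapped, an interval above the 52.1% of the whole list; the reported interval includes its whole list. With 50% of both hotspots required, 54.9% of Saos-2 hotspots were overlapped, against 44.1%. A U2OS hotspot lay within 250 bp of a listed start for 1 gene and within 2.5 kb for 4.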

Other observations

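Several shared sites were called as separate hotspots in 1 line. In the 10 windows, 4 of 44 shared sites (9.09%, 95% Wilson interval 3.59 to 21.2%) joined several Saos-2 hotspots to a single U2OS hotspot, and 2 (4.55%, 1.26 to 15.1%) joined several U2OS hotspots to a single Saos-2 hotspot. Genome-wide these shares were 2.60% and 1.77%. Whether these are separate sites or divided calls of 1 stretch was not tested. After joining neighbours under 150 bp apart, the windows held 63 Saos-2 and 82 U2OS hotspots, and 20 sites were found only in Saos-2.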
